A study of Homo sapiens with 6 samples.

Results

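The genes described here encode the proteins of the cytosolic ribosome, followed in the human bile duct cell line H69 with and without transforming growth factor beta (TGF-beta). They were chosen by name and position. A row of the deposited gene table was kept if it was annotated as protein coding on a primary chromosome other than Y and carried an RPL or RPS number, or was RPLP0, RPLP1, RPLP2 or RPSA. Kinases named RPS6K were left out. The rule gave 85 of the 64253 rows: 31 genes of the small subunit, 46 of the large subunit, 7 paralogues (RPL3L, RPL7L1, RPL10L, RPL22L1, RPL26L1, RPL39L and RPS27L) and a second row named RPL41 on chromosome 7. H69 is an immortalised line of cholangiocytes, which form the epithelium of the bile ducts, and was used at passages 30 to 32. The 3 vehicle libraries came from cells kept in vehicle and the 3 TGF-beta libraries from cells that received the recombinant human protein (10 ng/ml), both for 16 h. The labels do not say that replicates were separate cultures, so the p-values here measure only the spread between these libraries. In bulk RNA, fewer cells of a kind and less RNA per cell cannot be told apart.

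A cytosolic ribosome has a small subunit, which holds the mRNA and reads its codons, and a large subunit, which joins amino acids. Each subunit is a ribosomal RNA dressed with many proteins, most of them needed in equal numbers, and their genes are among the most highly expressed of any growing cell. Most of their mRNAs begin with a terminal oligopyrimidine (TOP) tract, a C followed by a run of C and T, through which the kinase mTOR and the RNA-binding protein LARP1 adjust their translation. TGF-beta slows the growth of many epithelial cells and is a known driver of matrix production in the bile duct and liver.

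The TOP tract is shown first because it is the sequence that most of these genes share outside their coding regions. The sequences are RefSeq windows on GRCh38.p14, from 10 bases before to 15 bases from the annotated start of transcription, 5′ to 3′ on the strand of the gene. Capitals mark a tract that begins with C at the first transcribed base and runs for at least 5 pyrimidines. The set holds genes that were called lower (RPS14, RPLP0, RPL13A, RPS21, RPL7A and RPS18), RPS6 and RPLP2, which were not, and 3 parent genes each followed by its paralogue.
RPS14: ccctcccactCTCTCTTTCCggtgt
RPLP0: ggcgcgaggcCCTTCTCTCgccagg
RPL13A: aaacctcctcCTTTTCCaagcggct
RPS21: ctagctgcttCCTTTCTCTCTCgcg
RPL7A: attccctttcCTTTCTCTCTCCTCC
RPS18: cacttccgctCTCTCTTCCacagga
RPS6: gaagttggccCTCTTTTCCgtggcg
RPLP2: tcggcgccttCCTTTTCCTCCCTgt
RPL22: cgctcacctcCCTTTCTaactccgc
RPL22L1: ccgtagcttcCTCTCTgctctcgcg
RPS27: cgctttcgctCCTTTCCggcggtga
RPS27L: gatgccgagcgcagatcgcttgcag
RPL26: gcgtgtagttCTCTTCCCTTTTgcg
RPL26L1: tccaggggtcggcgaacgaaacgcg
The windows of the called genes lie at chr5:150449725-150449749 on the minus strand for RPS14, chr12:120201097-120201121 on the minus strand for RPLP0 and chr19:49487598-49487622 on the plus strand for RPL13A. Those of RPS21, RPL7A and RPS18 lie at chr20:62387093-62387117, chr9:133348208-133348232 and chr6:33272065-33272089, all on the plus strand. RPS6 lies at chr9:19380222-19380246 on the minus strand and RPLP2 at chr11:809957-809981 on the plus strand. The parents are at chr1:6199581-6199605 on the minus strand (RPL22), chr1:153990752-153990776 on the plus strand (RPS27) and chr17:8383179-8383203 on the minus strand (RPL26). The paralogues are at chr3:170870181-170870205 on the minus strand (RPL22L1), chr15:63157463-63157487 on the minus strand (RPS27L) and chr5:172958719-172958743 on the plus strand (RPL26L1).

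Such a tract stood at 1 or more annotated starts of 46 of the 62 subunit genes with an entry in the RefSeq table (74.2%), and of 1404 of the table's 27305 genes (5.14%). Only the gene's own strand was read, and 67 member genes had an entry while 17 did not. The median tract of the subunit genes that had one was 8 bases and the longest was 19 bases, in RPL39. Among the 5 paralogues with an entry, RPL22L1 alone had a tract. The windows of RPS27L and RPL26L1 hold none, although their parents RPS27 and RPL26 do.

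Levels in CPM are a gene's reads scaled to the size of its library, after TMM scaling by edgeR, which sets a typical gene equal between libraries. The log2 fold change is the fitted difference of TGF-beta minus vehicle, where 1 is a doubling. A gene was called when its p from edgeR's quasi-likelihood test, adjusted by Benjamini-Hochberg over the 20992 genes tested, was under 0.05. Total counts ran from 37205862 to 54160521 per library, so that 1 CPM stood for 35.7 to 56.2 reads. The subunit genes averaged 105 to 1381 CPM in vehicle, and their SD between libraries had a median of 4.38% of the mean in vehicle and 2.14% in TGF-beta libraries. The treatment showed in SMAD7, an inhibitor that TGF-beta signalling induces, which rose from 13.1 ± 2.45 to 73.1 ± 3.09 CPM (SD, n = 3). Of 10 cholangiocyte markers 7 were tested and 1 was at 0 in all libraries, with KRT7 at 1538 and 2966 CPM and KRT19 at 326 and 289 CPM in vehicle and TGF-beta. Of the 7, KRT7 and SLC4A2 were called higher, and SOX9 (20.9 to 6.20 CPM, log2 -1.76) and EPCAM (13.5 to 9.62 CPM, log2 -0.48) were called lower. Their summed level, most of it KRT7, was 2114 to 2566 CPM in vehicle and 3801 to 4179 CPM in TGF-beta libraries. Of the markers of other cells, 2 of 6 hepatocyte, 4 of 6 fibroblast, 3 of 4 endothelial and 1 of 5 leukocyte genes were tested, and ALB, CDH5 and PTPRC were too low to test. In vehicle libraries the summed levels were 65.5 to 79.4 CPM for hepatocyte, 167 to 186 CPM for fibroblast, 19.3 to 23.8 CPM for endothelial and 5.20 to 6.75 CPM for leukocyte genes. In TGF-beta libraries they were 77.9 to 80.2, 266 to 286, 10.0 to 11.5 and 2.40 to 2.89 CPM in the same order. Each sum came mostly from few of its genes. Of the tested fibroblast genes 2 were called higher and 1 lower. For hepatocyte genes 1 was called higher, and 2 endothelial genes and 1 leukocyte gene were called lower (19.7% higher and 20.4% lower over all genes tested). The part of such cells in the results below was not tested.

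Ribosomal protein genes lay slightly below 0 on the log2 scale with TGF-beta, and none was called higher. Of 84 members tested, 15 were called lower, or 7 of 31 small subunit genes, 7 of 46 large subunit genes and the paralogue RPS27L. Over all genes tested 20.4% were called lower and 19.7% higher, so the share of members called lower was near the background and the share called higher, at 0 members, was below it. Of the 11370 protein-coding genes averaging 5 CPM or more, 2765 were called lower and 2771 higher, so against these the share of members called lower was smaller. No member above 0 had an unadjusted p under 0.05, and DESeq2 called none higher either. Limma on the deposited RPKM also called none higher. No TMM factors were applied there, the median of all genes was below 0 (-0.05 with log2(RPKM + 1)) and so were all 83 members tested. That fit therefore adds little on this point. The fitted change was below 0 for 79 of 84 members (94.0%), against 51.6% of all genes tested. The differences were small. Their median was -0.09 against -0.01 over all genes tested, they ran from -0.21 for RPS14 to 0.08 for RPS15 and RPL39L, and their SD was 0.06. No member lay beyond 0.25 in either direction, whereas 46.0% of all genes tested, and 35.8% of the protein-coding ones averaging 5 CPM or more, did so. In 33 members every TGF-beta library was below every vehicle library (26.9% of all genes tested), and in 0 members every TGF-beta library was above (25.4%).

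**Figure D1:**
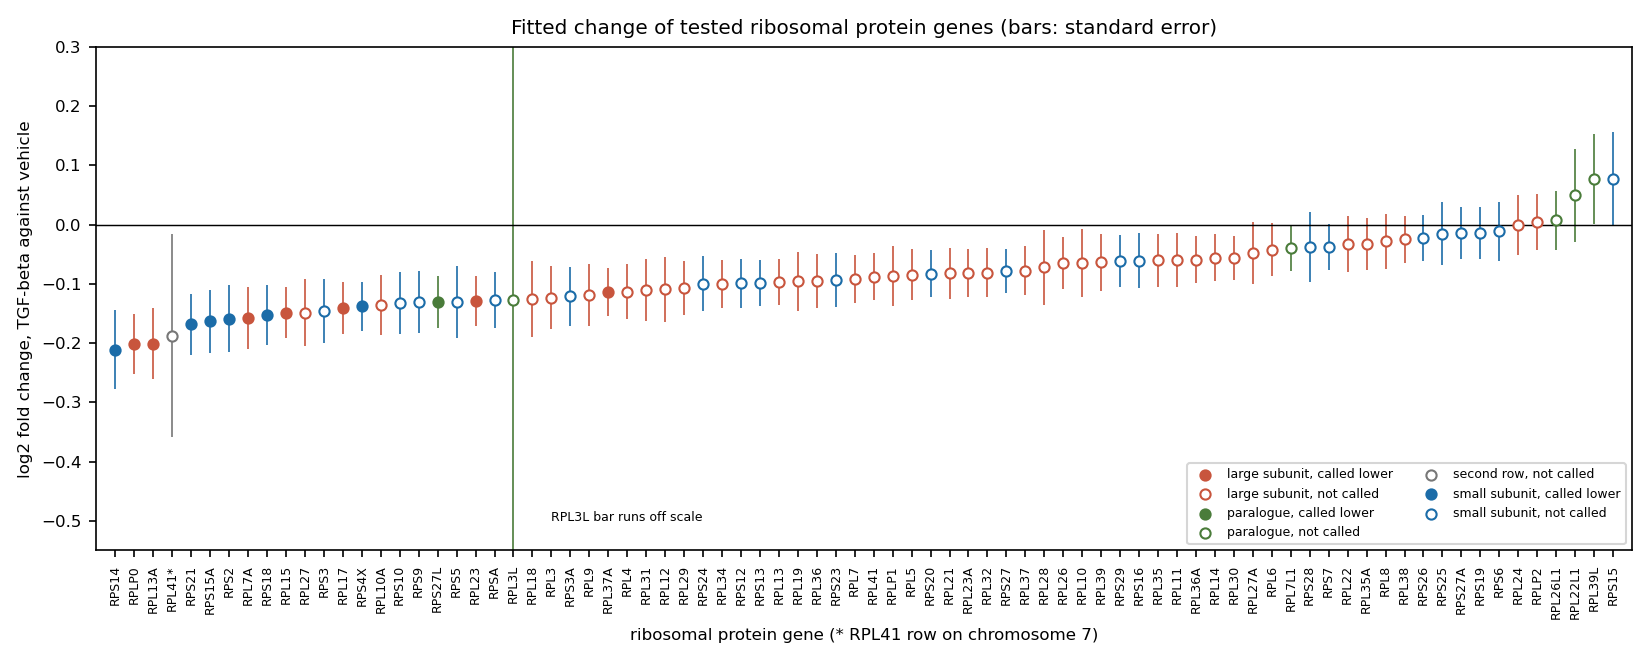
Fitted log2 fold change (vertical axis, TGF-beta minus vehicle, bars: standard error) of 80 tested ribosomal protein genes (horizontal axis, ordered by value, coloured by subunit; filled points were called lower). The points lie in a narrow band from -0.21 to 0.08, 75 of the 80 below 0.

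The small subunit genes had a median change of -0.10, with 30 of 31 below 0. RPS14, a protein of the platform of the small subunit, measured 480, 564 and 584 CPM in vehicle replicates 1, 2 and 3 and 462, 468 and 476 CPM in the TGF-beta replicates. Every TGF-beta library was below every vehicle library, but vehicle replicate 1 was nearer to the TGF-beta libraries than to the other vehicle libraries. Its log2 fold change was -0.21 (SE 0.07, edgeR adjusted p = 0.0310), the largest fall among the members. RPS21 measured 321, 351 and 362 CPM in vehicle and 302, 301 and 318 CPM in TGF-beta libraries (log2 -0.17, SE 0.05, edgeR adjusted p = 0.0249). The groups did not overlap, and again vehicle replicate 1 was the lowest of its group. RPS15A measured 374, 425 and 422 CPM in vehicle and 372, 362 and 355 CPM in TGF-beta libraries (log2 -0.16, SE 0.05, edgeR adjusted p = 0.0338). Vehicle replicate 1 and TGF-beta replicate 1 were almost level for that gene.

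RPS2, which lies at the mRNA entry side of the small subunit, was called lower although its groups overlapped. It measured 805, 914 and 901 CPM in vehicle and 748, 786 and 813 CPM in TGF-beta libraries (log2 -0.16, SE 0.06, edgeR adjusted p = 0.0456). TGF-beta replicate 3 was above vehicle replicate 1, which makes RPS2 the exception among the 15 called members, since the other 14 had groups that did not overlap. RPS18, a protein of the head of the small subunit, measured 984, 1060 and 1117 CPM in vehicle and 971, 941 and 934 CPM in TGF-beta libraries (log2 -0.15, SE 0.05, edgeR adjusted p = 0.0368). RPS4X, the X-linked form of a protein that also has a Y-linked copy, measured 696, 739 and 740 CPM in vehicle and 661, 655 and 660 CPM in TGF-beta libraries (log2 -0.14, SE 0.04, edgeR adjusted p = 0.0228). Its TGF-beta libraries were within a few CPM of each other, and all were below the vehicle libraries.

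Other small subunit genes with known roles were not called. RPSA, which is also known as a laminin receptor precursor, measured 881, 969 and 963 CPM in vehicle and 846, 861 and 868 CPM in TGF-beta libraries (log2 -0.13, SE 0.05, edgeR adjusted p = 0.0532). RPS3, a protein of the mRNA entry channel with a second role in DNA repair, measured 823, 919 and 949 CPM and then 809, 803 and 820 CPM (log2 -0.15, SE 0.05, edgeR adjusted p = 0.0548). In both genes the groups did not overlap, and the adjusted p lay just above the threshold. RPS20 gave 461, 464 and 483 CPM in vehicle and 439, 441 and 450 CPM in TGF-beta libraries (log2 -0.08, SE 0.04), also without overlap.

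RPS6, the ribosomal protein phosphorylated by the S6 kinases downstream of mTOR, differed little between conditions. It measured 1040, 988 and 986 CPM in vehicle and 1050, 1002 and 939 CPM in TGF-beta libraries (log2 -0.01, SE 0.05), and replicate 1 was the highest library of both groups. RPS19, the gene most often mutated in Diamond-Blackfan anaemia, measured 624, 641 and 679 CPM in vehicle and 639, 635 and 652 CPM in TGF-beta libraries (log2 -0.01, SE 0.04). RPS27A, which is made as a fusion with ubiquitin, measured 450, 462 and 456 CPM in vehicle and 475, 438 and 442 CPM in TGF-beta libraries (log2 -0.01, SE 0.04). The groups overlapped in all 3 genes. RPS15 was the small subunit gene with a value above 0, at 267, 246 and 229 CPM in vehicle and 233, 270 and 280 CPM in TGF-beta libraries (log2 0.08, SE 0.08, edgeR adjusted p = 0.474).

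The large subunit genes had a median change of -0.09, with 45 of 46 below 0. RPLP0, RPLP1 and RPLP2 form the stalk, the arm of the large subunit that recruits elongation factors, and the 3 genes did not show the same values. RPLP0, the base of the stalk, measured 986, 1092 and 1111 CPM in vehicle and 915, 915 and 943 CPM in TGF-beta libraries. No libraries overlapped, and its log2 fold change was -0.20 (SE 0.05, edgeR adjusted p = 0.0100). RPLP1 measured 668, 736 and 753 CPM in vehicle and 672, 669 and 691 CPM in TGF-beta libraries (log2 -0.09, SE 0.05, edgeR adjusted p = 0.206). RPLP2 measured 342, 376 and 371 CPM in vehicle and 353, 365 and 373 CPM in TGF-beta libraries (log2 0.00, SE 0.05, edgeR adjusted p = 0.955). Vehicle replicate 1 was the lowest library for RPLP1 and RPLP2, below every TGF-beta library, and the sign for RPLP2 turned with the scaling, at -0.12 with library totals alone. The difference between the 3 stalk genes was not tested.

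RPL13A, a large subunit protein that also serves in a translation-silencing complex after interferon, measured 1041, 1184 and 1223 CPM in vehicle and 977, 994 and 1029 CPM in TGF-beta libraries. The groups did not overlap, vehicle replicate 1 being the nearest to the TGF-beta libraries, and the log2 fold change was -0.20 (SE 0.06, edgeR adjusted p = 0.0216). RPL7A measured 1094, 1210 and 1247 CPM in vehicle and 1052, 1054 and 1079 CPM in TGF-beta libraries (log2 -0.16, SE 0.05, edgeR adjusted p = 0.0356). The remaining called genes of the large subunit were RPL15 (log2 -0.15), RPL17 (-0.14), RPL23 (-0.13) and RPL37A (-0.11), each with TGF-beta libraries below all vehicle libraries.

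RPL5 and RPL11 bind the 5S ribosomal RNA and, when free of ribosomes, the p53 regulator MDM2. RPL5 measured 709, 743 and 744 CPM in vehicle and 716, 685 and 670 CPM in TGF-beta libraries (log2 -0.08, SE 0.04, edgeR adjusted p = 0.153). RPL11 measured 363, 382 and 393 CPM in vehicle and 376, 360 and 357 CPM in TGF-beta libraries (log2 -0.06, SE 0.04, edgeR adjusted p = 0.325). Neither was called, and the groups overlapped in both. RPL10, which completes the catalytic centre of the large subunit late in its assembly, measured 683, 775 and 796 CPM and then 714, 710 and 731 CPM (log2 -0.06, SE 0.06). RPL8 was close to level, at 945, 1008 and 1010 CPM in vehicle and 936, 965 and 1006 CPM in TGF-beta libraries (log2 -0.03, SE 0.05). The TGF-beta values of RPL10 all lay inside the vehicle range.

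Levels between genes were compared per length, in the RPKM (reads scaled to gene length and library size) that the authors deposited, averaged over the 6 libraries. RPS12 had the highest, at 268 RPKM, followed by RPS18 at 225 and RPL7A at 214 RPKM, and RPL13A was also among the highest at 194 RPKM. The subunit genes had a median of 63.1 RPKM, and the lowest of them was RPL22 at 10.8 RPKM. The lowest tested members were RPL3L at 0.0382, the chromosome 7 row of RPL41 at 1.59, RPS27L at 2.90, RPL39L at 8.09 and RPL7L1 at 9.85 RPKM. The lengths in the table, from 767 to 9783 bases with a median of 2977 bases for subunit genes, are longer than the short mRNAs these genes are known for. The sources used here do not say how they were set, and a longer length lowers a gene's RPKM. The following values are a description over the 77 subunit genes, which share their libraries. The log2 fold change was more negative at higher mean CPM in vehicle (Spearman's rho -0.45). That mean also enters the fold change, so part of this relation can be built in. The table length showed little relation to the log2 fold change (rho -0.06).

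The ribosomal protein genes leaned to one side of their own means in most libraries. For each gene, the log2 CPM in a library minus its mean over the 6 libraries gives a deviation. The median deviation over the 84 tested members was -0.02 in vehicle replicate 1, 0.06 in vehicle replicate 2 and 0.08 in vehicle replicate 3. In TGF-beta replicates 1, 2 and 3 it was -0.03, -0.06 and -0.05. In vehicle replicates 2 and 3, 73 and 80 members were above their own mean, and in TGF-beta replicates 2 and 3, 79 and 73 were below it. Members went both ways in vehicle replicate 1, with 54 below and 30 above, and in TGF-beta replicate 1, with 61 below and 23 above. Vehicle replicate 1 was the lowest vehicle library for 67 of 84 members, lay inside the TGF-beta range for 40 and lay below that range for 9. Vehicle replicates 2 and 3 were both above every TGF-beta library for 65 members. Vehicle replicate 1 also stood apart over all genes: the chi-square per degree of freedom between its counts and those of vehicle replicates 2 and 3 was 23.5 and 26.0, against 2.50 to 4.70 for the other pairs within a condition. Its part in the result was measured by leaving it out, as given next.

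**Figure D2:**
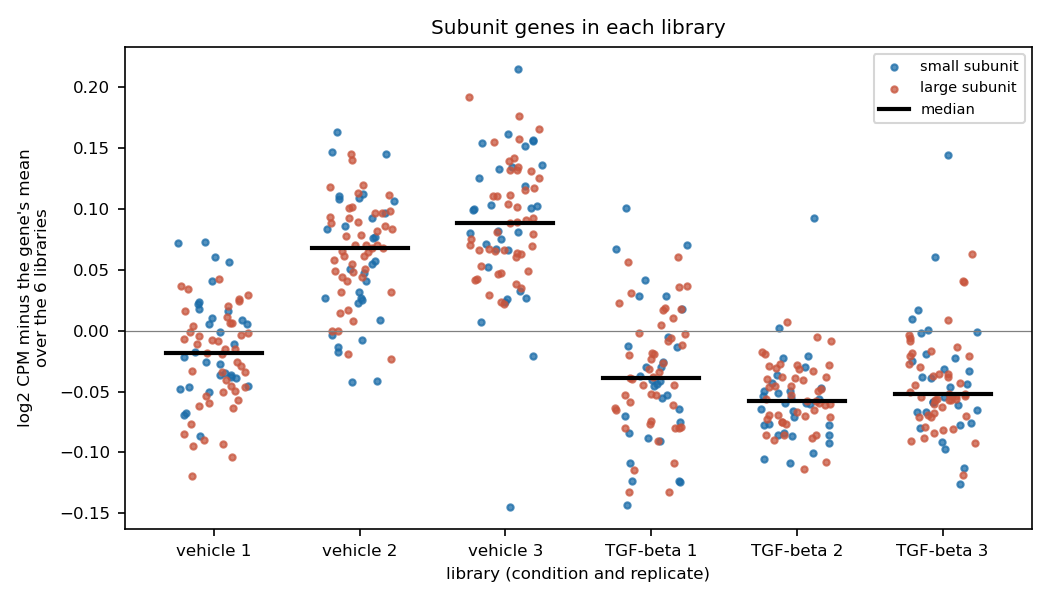
Log2 CPM of each of the 77 subunit genes minus that gene's mean over the 6 libraries (vertical axis) in each library (horizontal axis), with bars at the median and colours for the subunit. Vehicle replicates 2 and 3 lie above the TGF-beta libraries, and vehicle replicate 1 lies between them.

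The number of members called lower depended on the libraries, while the direction of the group did not. Without vehicle replicate 1, 56 members were called lower (25.5% of all genes tested) and the median change was -0.11. Without vehicle replicate 2 or 3, 1 member was called lower in each case (15.6% and 16.5% of all genes tested). Without TGF-beta replicate 1, 2 or 3 the counts were 3, 0 and 2 (15.7%, 14.4% and 15.2%). In the fit with 0 calls, 8 members were below 0 at an unadjusted p under 0.05. Over these 6 fits the median change of the members ran from -0.11 to -0.07, and no member was called higher. RPLP0 was called lower in 5 of the 6 fits, RPS21 and RPS27L in 2, and the other 12 called members in 1.

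The scaling shifted all genes together. With library totals alone, without TMM factors, the median of all genes tested was -0.14, and 7282 of them were called lower and 2698 higher, against 4278 and 4145 with TMM. On that scale all 84 members were below 0, 75 were called lower (34.7% of all genes tested) and the median of the members was -0.22. Relative to the median of all genes, the members were 0.08 lower with either scaling, written as -0.08 on the log2 scale. A change of scaling moves all genes together, so it could hardly alter this difference. Over this test and its 15 alternatives, which include such changes, the difference ran from -0.11 to -0.05. DESeq2 called 7 members lower (14.1% of all genes tested), limma on the deposited RPKM called 64 (29.8%), and edgeR without a filter on low counts called 23 (12.0%). No member was called higher in any of the 15 alternatives. With limma, as with library totals alone, no tested member was above 0, so a call of higher could not arise. RPL24, RPL3L, RPL26L1, RPL22L1, RPL39L, RPS25, RPS6, RPS15 and the chromosome 7 row of RPL41 were the 9 members called lower in none of them.

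**Figure D3:**
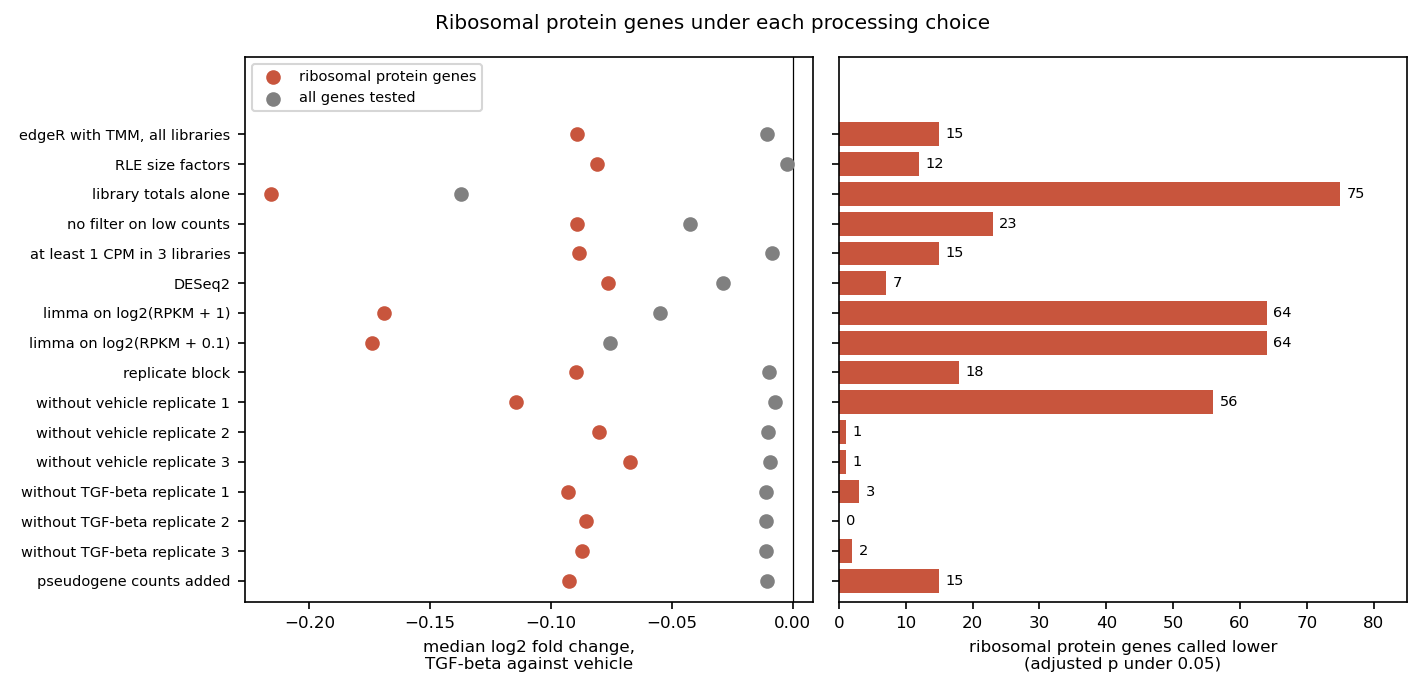
Left, median log2 fold change (horizontal axis) of the ribosomal protein genes and of all genes tested under each processing choice (vertical axis). Right, number of ribosomal protein genes called lower under the same choices. The member median is left of the all-gene median under every choice, while the number called lower runs from 0 to 75.

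Without any scaling factor, the summed counts of the 85 members took 4.01, 4.24 and 4.34% of all counts in vehicle replicates 1, 2 and 3. In the TGF-beta libraries the shares were 3.62, 3.57 and 3.58%. The groups did not overlap, with means of 4.20 ± 0.171% and 3.59 ± 0.0267% (SD, n = 3 each), and the vehicle libraries spread more widely than the TGF-beta libraries. Much of this fall was shared by other genes. With library totals alone the median log2 fold change of all genes tested was -0.14, against -0.22 for the members. The share of mitochondrially encoded genes moved the other way, with means of 3.31 ± 0.246% and 3.69 ± 0.160% (SD, n = 3). With those genes left out the members' shares were 4.34 ± 0.188% and 3.73 ± 0.0226%.

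The paralogues are copies that replace or resemble a ribosomal protein in some tissues, such as RPL3L in muscle and RPL39L and RPL10L in testis. Of the 6 tested, 3 were below 0 and 3 above, with a median of -0.02, and their difference from the subunit genes was not tested. RPS27L, a p53 target, measured 66.0, 64.5 and 63.8 CPM in vehicle and 61.0, 58.6 and 57.8 CPM in TGF-beta libraries. The groups did not overlap, and it was called lower (log2 -0.13, SE 0.04, edgeR adjusted p = 0.0352). RPL22L1 measured 101, 92.1 and 89.5 CPM in vehicle and 110, 91.8 and 90.9 CPM in TGF-beta libraries (log2 0.05, SE 0.08), with replicate 1 the highest of both groups. RPL39L measured 18.8, 21.6 and 18.4 CPM in vehicle and 22.0, 20.4 and 19.8 CPM in TGF-beta libraries (log2 0.08, SE 0.08). RPL26L1 stayed between 27.3 and 28.8 CPM in all 6 libraries (log2 0.01, SE 0.05). The signs of RPL22L1, RPL39L and RPL26L1 turn with library totals alone, at -0.08, -0.05 and -0.12, where all members were below 0. RPL7L1, which resembles RPL7, measured 182, 184 and 183 CPM in vehicle and 182, 174 and 178 CPM in TGF-beta libraries (log2 -0.04, SE 0.04).

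RPL3L and RPL10L were close to absent. RPL3L had 15, 8 and 14 reads in the vehicle libraries and 11, 2 and 14 in the TGF-beta libraries (log2 -0.13, SE 0.60). RPL10L had 2, 3 and 0 reads in vehicle and 1, 2 and 1 in TGF-beta libraries and did not pass the filter on low counts, so it is the member that was not tested. No difference was detectable in either at this depth. The chromosome 7 row of RPL41 measured 1.65, 1.51 and 1.70 CPM in vehicle and 1.76, 1.26 and 1.26 CPM in TGF-beta libraries (log2 -0.19, SE 0.17), against 202 to 208 CPM in vehicle for the RPL41 gene on chromosome 12, and its reads may be shared with near-identical copies.

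The balance between a paralogue and its parent was compared as the log2 ratio of their counts within a library, which does not depend on the scaling. Of 8 pairs listed 7 were compared, and with 3 libraries against 3 the exact permutation test cannot give a p below 0.1. RPL36AL, a copy of RPL36A outside the name rule, had 64.2% as many counts as RPL36A in vehicle and 72.1% in TGF-beta libraries. Its log2 ratio to RPL36A was -0.56, -0.67 and -0.68 in vehicle and -0.43, -0.50 and -0.48 in TGF-beta libraries. All TGF-beta ratios were above all vehicle ratios, with a difference of 0.17 (exact two-sided permutation p = 0.1, adjusted p = 0.35 over the 7 pairs). The RPL7L1 ratio to RPL7 was -1.70, -1.72 and -1.69 in vehicle and -1.67, -1.68 and -1.62 in TGF-beta libraries, again without overlap (difference 0.05, exact two-sided permutation p = 0.1, adjusted p = 0.35). For RPL39L with RPL39 the difference was 0.15, for RPL22L1 with RPL22 0.08 and for RPL26L1 with RPL26 0.07, each with overlapping groups (exact two-sided permutation p = 0.3, 0.4 and 0.3). These differences depended on single libraries. The RPL39L difference was 0.23 without vehicle replicate 2 and 0.10 without vehicle replicate 3. The RPL22L1 difference was 0.14 without vehicle replicate 1, 0.02 without vehicle replicate 3 and 0.03 without TGF-beta replicate 1. The RPL26L1 difference was 0.05 without vehicle replicate 2, and leaving out the TGF-beta libraries 1 or 3 gave 0.11 or 0.04. RPS27L against RPS27 had a difference of -0.05 with overlapping groups (exact two-sided permutation p = 0.3), which ran from -0.08 to -0.03 with 1 library left out, the latter without vehicle replicate 1. RPS27 itself measured 259, 264 and 265 CPM in vehicle and 248, 251 and 248 CPM in TGF-beta libraries (log2 -0.08, SE 0.04). The RPL3L ratio to RPL3 rested on at most 15 reads a library, and its difference of -0.29 (exact two-sided permutation p = 0.9) was 0.05 without vehicle replicate 1 and 0.59 without TGF-beta replicate 2.

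**Figure D4:**
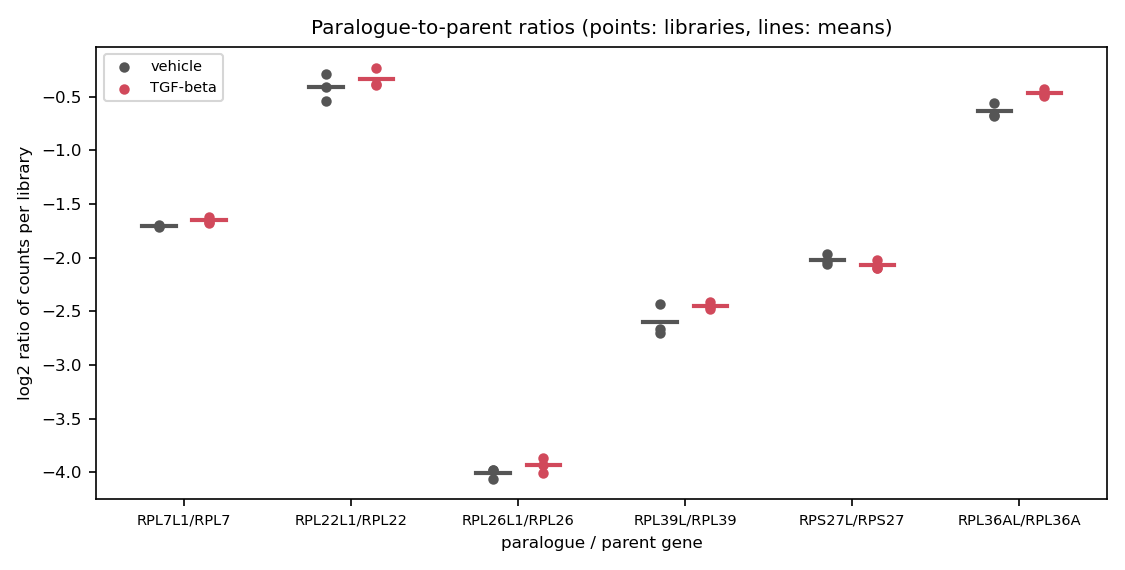
Log2 ratio of paralogue to parent counts (vertical axis) for 6 pairs (horizontal axis), with 1 point per library and a line at each condition's mean. The TGF-beta points of RPL36AL and of RPL7L1 lie above the vehicle points, and those of the other 4 pairs overlap with them.

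Ribosomal proteins that the name rule leaves out were not called in either direction by edgeR, 0 of 4 (also 0 at an unadjusted p under 0.05, and 0 by DESeq2), though limma on RPKM called 1 lower. RACK1, a signalling scaffold on the small subunit, measured 890, 1027 and 1040 CPM in vehicle and 887, 899 and 917 CPM in TGF-beta libraries (log2 -0.13, SE 0.06, edgeR adjusted p = 0.108). It resembled the subunit genes in that vehicle replicate 1 was level with the TGF-beta libraries, and it was called lower without that library (log2 -0.20). FAU, made as a fusion with a ubiquitin-like protein, had a log2 fold change of 0.04 (SE 0.05), which turned to -0.09 with library totals alone. RPL36AL had a log2 fold change of 0.11 (SE 0.05, edgeR adjusted p = 0.113), which was -0.02 with library totals alone. It was called higher with the replicate number as a block (log2 0.11, edgeR adjusted p = 0.0435, where 20.2% of all genes tested were called higher) and without vehicle replicate 1 (log2 0.14, edgeR adjusted p = 0.00437, 24.9% of all genes). Of the 4 genes, 2 were called lower with library totals alone.

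Other genes of protein synthesis spread more widely than the ribosomal protein genes. Among 30 elongation factors and other genes with TOP mRNAs, 7 were called lower and 2 higher, with a median of -0.06. Those called lower were EEF1A1, EEF2, EIF4B and the snoRNA host genes GAS5, SNHG5, SNHG6 and SNHG8, and those called higher were EEF1D and NAP1L1. The share called lower was near the 20.4% of all genes tested, and the share called higher was below the 19.7%. With library totals alone 24 were called lower and 1 higher at a median of -0.19 (34.7% and 12.9% of all genes tested), and limma on log2(RPKM + 1) called 19 lower and 1 higher (29.8% and 15.9%). EEF1A1, which delivers aminoacyl-tRNA to the ribosome and is itself a TOP gene, measured 4660, 5337 and 5326 CPM in vehicle and 4326, 4439 and 4544 CPM in TGF-beta libraries (log2 -0.20, SE 0.06, edgeR adjusted p = 0.0175). EEF2, which moves the ribosome along the mRNA, had a log2 fold change of -0.19 (SE 0.06, edgeR adjusted p = 0.0406). In both, vehicle replicate 1 was the lowest vehicle library, as in most ribosomal protein genes. Of the 6 fits that leave out a library, EEF1A1 was called lower in 2 and EEF2 in 1. The largest fall of the list was in the snoRNA host gene SNHG5 (log2 -0.26), and the largest rise in NAP1L1, a histone chaperone, from 569 ± 32.9 to 925 ± 46.7 CPM (SD, n = 3, log2 0.70). The 7 falls were 11 without vehicle replicate 1 and 2 or 3 without any other library.

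Initiation factors outside the TOP list and ribosome assembly factors had medians above that of all genes. Of 28 such initiation factors 12 were called higher and 4 lower (19.7% and 20.4% of all genes tested), with a median of 0.11 that was -0.02 with library totals alone, where 4 were called higher and 8 lower. The 8 further initiation factors counted with the TOP genes had a median of -0.05, 7 of them below 0, and of these EIF4B was called lower (log2 -0.16). Over all 36 together, 12 were called higher and 5 lower, with a median of 0.08, and with library totals alone 4 were called higher and 15 lower, with a median of -0.04. EIF5, which triggers GTP hydrolysis at the start codon, rose by 0.35 (SE 0.05), and EIF2B3, a subunit of the eIF2 exchange factor, fell by 0.45 on the log2 scale. Of 69 assembly factors 25 were called higher and 3 lower, with a median of 0.10 that was -0.02 with library totals alone. On that scale 8 were called higher and 13 lower, against 12.9% and 34.7% of all genes tested. RRP1B, a nucleolar assembly protein, rose from 133 ± 6.89 to 189 ± 3.51 CPM (SD, n = 3, log2 0.51), and NMD3, the export adaptor of the large subunit, fell by 0.26 on the log2 scale. Relative to all genes, the medians of both lists stayed above 0 in every alternative, from 0.07 to 0.15 for each list. On the same measure the 36 initiation factors together ran from 0.05 to 0.12, and the ribosomal protein genes stayed below 0. The alternatives that change only the scaling could hardly alter these values. Without vehicle replicate 1, 38 assembly factors were called higher (24.9% of all genes tested), and 19 to 21 without any other library. Over the same fits 9 to 16 initiation factors outside the TOP list were called higher, most of them without vehicle replicate 1. The difference between the lists was not tested.

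Genes of RNA polymerase I, which makes ribosomal RNA, had a median of 0.00, with 3 of 21 called higher and 4 lower, both near the shares of all genes tested (19.7% and 20.4%). That median was -0.12 with library totals alone, where 1 was called higher and 10 lower. CD3EAP, a subunit of the polymerase, rose from 39.4 ± 1.30 to 77.2 ± 1.96 CPM (SD, n = 3, log2 0.97), and POLR1B, its second largest subunit, fell by 0.27 on the log2 scale. MYC drives ribosome production in growing cells. The list of its network also holds antagonists of MYC, of which MXD1, MXD3, MXI1 and MGA were called lower, MNT higher and MXD4 not. Of the 12 genes in the list 5 were called higher and 5 lower, both above the shares of all genes tested, with a median of -0.05. The counts were 2 and 7 with library totals alone, with a median of -0.18. MYC itself measured 54.6, 59.5 and 57.6 CPM in vehicle and 65.5, 62.0 and 64.8 CPM in TGF-beta libraries (log2 0.16, SE 0.05, edgeR adjusted p = 0.0217). It was 0.04 and not called with library totals alone, and lost its call without vehicle replicate 3 and without either of TGF-beta replicates 1 and 3. MLXIP, a partner of MLX that responds to glucose, rose by 1.50 and MYCL fell by 0.71 on the log2 scale. With 1 library left out, 2 to 4 polymerase genes were called lower, and in the MYC network 3 to 5 genes were called in each direction.

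Genes of mTOR and of TOP mRNA control had 3 of 31 called higher and 7 lower, with a median of -0.10. The share called lower was near the 20.4% of all genes tested and the share called higher below the 19.7%. The calls were 1 higher and 21 lower with library totals alone, with a median of -0.23, and limma on log2(RPKM + 1) called 1 of 28 higher and 15 lower. MTOR measured 101, 102 and 95.7 CPM in vehicle and 96.5, 98.4 and 97.5 CPM in TGF-beta libraries (log2 -0.03, SE 0.04), and was called lower with library totals alone (log2 -0.15). RPS6KB1, the S6 kinase that phosphorylates RPS6, had a log2 fold change of 0.06 (SE 0.05), which was -0.07 with library totals alone. LARP1, which binds the TOP tract, measured 296, 323 and 318 CPM in vehicle and 276, 281 and 279 CPM in TGF-beta libraries. Its groups did not overlap (log2 -0.17, SE 0.04, edgeR adjusted p = 0.0126), and it was not called without vehicle replicate 2 or without TGF-beta replicate 1 or 2. EIF4EBP1, an inhibitor of cap-dependent initiation that mTOR switches off, rose from 45.8 ± 2.62 to 65.6 ± 5.79 CPM (SD, n = 3, log2 0.52), and LARP4 fell by 0.39 on the log2 scale. Among 79 rows of the table for proteins of the mitochondrial ribosome, which carry 77 gene names since 2 of the names have 2 rows each, 5 were called higher and 14 lower, with a median of -0.04. The 14 rows carry 14 different names. As for the cytosolic ribosomal protein genes, the share called lower was near the 20.4% of all genes tested and the share called higher was below the 19.7%. On the scale of library totals alone 1 was called higher and 44 lower (12.9% and 34.7% of all genes tested), with a median of -0.17, and limma on log2(RPKM + 1) called 2 higher and 30 lower. MRPL14 rose by 0.38 and MRPL10 fell by 0.36 on the log2 scale, both larger than the change of any cytosolic ribosomal protein gene. Leaving out vehicle replicate 1 gave 23 falls and 10 rises in the mitochondrial list and 11 falls and 5 rises in the mTOR list. Leaving out TGF-beta replicate 2 gave 7 falls and 3 rises, and 4 falls and 2 rises.

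**Figure D5:**
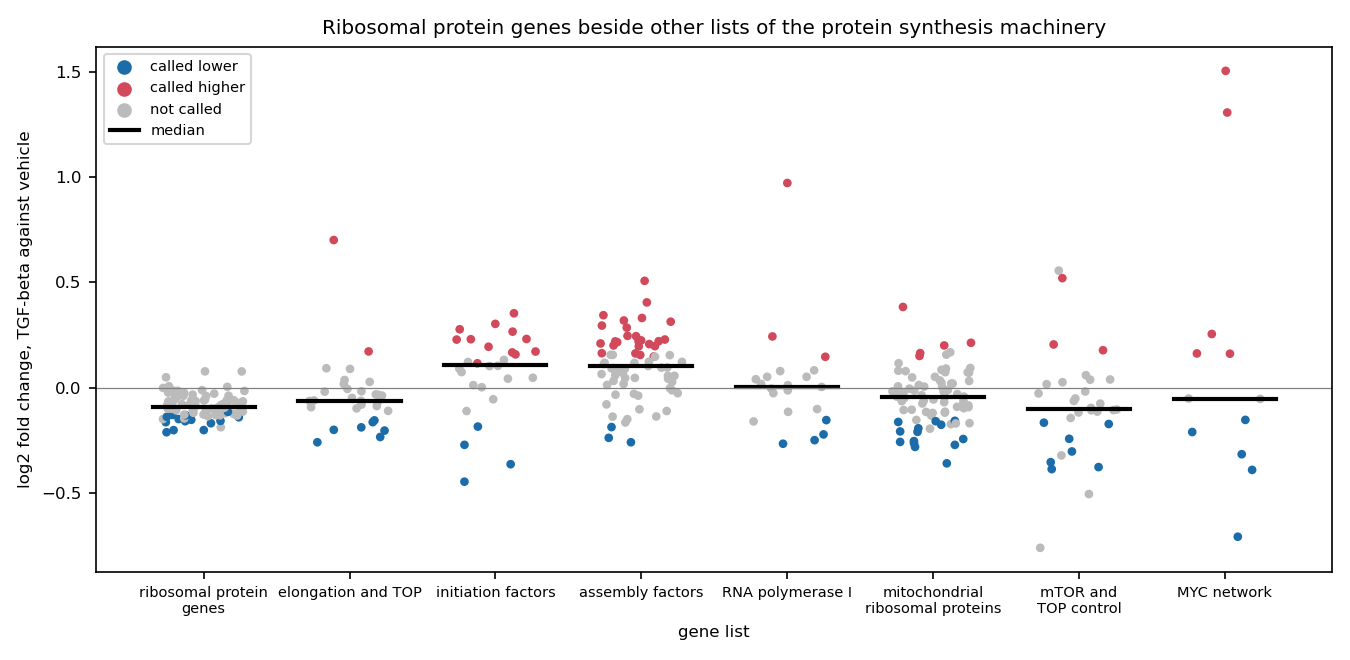
Log2 fold change (vertical axis, TGF-beta minus vehicle) of each tested gene in the ribosomal protein group and in 7 other lists of protein synthesis and its control (horizontal axis), with called genes coloured and a bar at each median. The ribosomal protein genes span -0.21 to 0.08, the narrowest band of the 8 groups shown.

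Subunit genes with and without a TOP tract at a RefSeq start had similar median changes. The median log2 fold change was -0.09 for the 46 with a tract, such as those printed for RPS14 and RPLP0, and -0.10 for the 16 without. Of these, 7 of the 46 and 3 of the 16 were called lower, against 20.4% of all genes tested. RPS6 and RPLP2 carry tracts of 9 and 13 bases and were at -0.01 and 0.00. Among other tested genes the median was -0.03 for the 740 with a tract and -0.01 for the 10357 without. A tract in these letters is a description of the annotated start and does not show that the start was used in H69 cells. It was read only at the annotated base. In some subunit genes counted as without a tract, a run of pyrimidines began a few bases further on. The comparison therefore cannot tell genes with TOP mRNAs from genes without them.

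Reads of ribosomal protein genes can be shared with other rows of the table. The table holds 874 pseudogenes named after 76 of the members, up to 61 for RPL7, and their summed counts equalled 3.32 ± 0.0823% of those of the members in vehicle, and 3.30 ± 0.0328% with TGF-beta (SD, n = 3). For a few members the pseudogenes weighed more, at 48.5% of the gene's own counts for RPL39, 26.9% for RPS2, 18.7% for RPS3A and 14.8% for RPL13A. With the counts of each gene and its pseudogenes added together, 15 members were again called lower (20.6% of all genes tested) and the median was -0.09. Of the 156 pseudogenes tested, 5 were called lower by edgeR, a share below the 20.4% of all genes tested. None was called higher (19.7% of all genes tested), and 3 rose at an unadjusted p under 0.05 in the same edgeR test. As a group the pseudogenes held few reads beside the members, which makes a small change harder to call. The median of the 156 was -0.08, close to that of the members, but 103 of them were below 0, against 79 of 84 members. Exons of 31 members overlapped those of another gene in GENCODE version 29, and over 50% of the main transcript was overlapped in 7, among them RPL17, RPL36A, RPS10, RPL26, RPL38 and RPL10. Of the 7, RPL17 was called lower.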

How the data were processed

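RNA sequencing of 3 vehicle and 3 TGF-beta samples of H69 cells was analysed from 1 deposited table of 64253 genes. Per the submitters' processing notes, bcl2fastq, STAR 2.6.1 and featureCounts of Subread were used with genome build hg38. The deposited count columns hold whole reads per gene, per the file headers and values. The RPKM columns are the authors' values per the file headers, and the sources used here do not say which library total they divide by. The strand setting, the rule for multi-mapped reads and the annotation release are likewise not given, so reads of overlapping or near-identical genes may be split.

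Counts were tested in R 4.3.3 with edgeR 4.0.16 (TMM, filterByExpr with a minimum count of 10, robust quasi-likelihood test, no block). A check on simulated counts required recovery only of doublings, which are larger than the change of any member. Benjamini-Hochberg adjustment covered all 20992 genes tested, and calls needed an adjusted p under 0.05. The standard error is the log2 fold change over the square root of F. Alternatives were RLE factors, library totals alone, no filter, at least 1 CPM in 3 libraries, DESeq2 1.42.0, and limma 3.58.1 on log2(RPKM + 1 or 0.1) for genes with mean RPKM of at least 0.5. They also included a replicate block, each library left out and pseudogene counts added. Paralogue ratios used counts plus 0.5. The depth was 37205862 to 54160521 counts per library.

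The members and lists were chosen with earlier results of these data known. Genes named were the 8 largest called falls at a mean of at least 5 CPM (no rise was called), the 5 highest and 5 lowest members by RPKM, paralogues with parents, and members and regulators with textbook roles. From each other list the largest called rise and fall were named. The other called members, RPS15 and the members called in no alternative were named after their values were seen. The values of a few genes are not reported here. TOP tracts were read from RefSeq promoter sequences of GRCh38.p14.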

Additional observations from a re-analysis of the deposited data

How the results depend on the processing

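With 1 library left out, the number of ribosomal protein genes called lower ran from 0, with TGF-beta replicate 2 left out, to 56, with vehicle replicate 1 left out, against 15 with all 6. It was 23 without a filter on low counts, 7 with DESeq2, 64 with limma on log2(RPKM + 1) and 64 with limma on log2(RPKM + 0.1). The members' median was -0.17 with either RPKM pseudocount. With library totals alone 75 members were called lower at a median of -0.22, and over all genes 2698 were called higher and 7282 lower at a median of -0.14. With limma, 2406 and 2402 genes were called higher with the larger and smaller pseudocount, at medians of -0.0547 and -0.0756. The causes of these differences were not tested, apart from library totals, which leave out the scaling factors. The TGF-beta share of counts was 3.73% with mitochondrial genes left out.

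Directions turned for values close to 0. With library totals alone, limma on log2(RPKM + 1) and limma on log2(RPKM + 0.1), log2 fold changes were -0.0769, -0.0381 and -0.0403 for RPL22L1, -0.12, -0.0721 and -0.0783 for RPL26L1, and -0.0486, -0.0048 and -0.0052 for RPL39L. In the same order they were -0.12, -0.0804 and -0.0813 for RPLP2, -0.0863, -0.0444 and -0.0452 for FAU and -0.0673, -0.0212 and -0.0266 for RPS6KB1. RPL36AL was at -0.021 with library totals alone. With 1 library left out, values ran from -0.0416 to 0.10 for RPL22L1, -0.0093 to 0.0281 for RPL26L1, -0.60 to 0.43 for RPL3L and -0.0355 to 0.0313 for RPLP2. They ran from -0.0402 to 0.0223 for RPS19, -0.0504 to 0.0093 for RPS27A and -0.0484 to 0.0322 for RPS6. The RPL3L ratio ran from -0.78 to 0.59.

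With the replicate block, 18 of 84 members were called lower and 0 higher, against 20.6% and 20.2% of all genes tested. Same-numbered libraries had deviations that correlated at 0.07, 0.06 and 0.01, so the numbers were not taken as pairs. Depth limits RPL3L and RPL10L, with at most 15 reads a library.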
